A study of Arabidopsis thaliana with 8 samples.

Results

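PPDK (AT4G15530), FDH (AT5G14780), GAMMA-VPE (AT4G32940) and WRKY22 (AT4G01250) are 4 Arabidopsis thaliana genes whose transcript levels were followed from young shoot apices to the mature leaf. They were chosen by name as early senescence and nitrogen remobilisation genes with their mature-leaf intensities in view, and their mature-leaf differences are therefore given as a description, with no test. They are 4 of the 9906 genes tested. Of the 22810 probe sets on the array, 13513 are annotated to 1 gene, and each of the 4 genes has 1 of these. Probe sets with no gene name or with several genes were not searched for them.

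Transcripts were measured with ATH1 arrays in shoots of the accession Landsberg erecta (Ler), grown on soil in short days with 10 h of light at 20 °C. The 4 groups, with 2 arrays each, were vegetative apices of young plants (Apex_5DAS, called younger apices, since the titles give day 5 and the source names day 7), vegetative apices of day 14 (Apex_14DAS, older apices), leaves 1 and 2 while still expanding on day 14 (EL_14DAS), and mature, fully expanded leaves of day 35 (ML_35DAS). No group was treated, and the labels name no mutation or transgene. The labels do not say that the 2 arrays of a group came from separate plants, so p-values measure only the spread between these arrays.

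When a leaf senesces, its chloroplast proteins are broken down and the nitrogen they held is exported as amino acids to growing organs and seeds. PPDK, pyruvate orthophosphate dikinase, interconverts pyruvate and phosphoenolpyruvate and is known in Arabidopsis leaves for a part in making transport amino acids during senescence. FDH is the mitochondrial formate dehydrogenase, which oxidises formate to carbon dioxide. GAMMA-VPE is a vacuolar processing enzyme, a cysteine protease that matures and degrades proteins in the vacuole of vegetative organs. WRKY22 is a transcription factor that acts below the flagellin receptor in pattern-triggered immunity and has been described as a regulator of dark-induced leaf senescence.

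PPDK and FDH stood far higher in mature leaves than on any other array. GAMMA-VPE was higher in mature leaves than in expanding leaves but close to its level on 1 of the younger-apex arrays. WRKY22 was lower in mature leaves than anywhere else. The levels below are linear intensities after the arrays were scaled to a common trimmed mean. They compare arrays for 1 probe set, not 1 gene with another. In these bulk samples, fewer cells of a type and less RNA per cell cannot be told apart.

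PPDK had scaled intensities of 42.7 and 93.8 in younger apices, 64.4 and 43.1 in older apices, 28.8 and 22.3 in expanding leaves, and 1409 and 1394 in mature leaves. Both mature-leaf arrays lay above all 6 others, and the lower of them was 14.9 times the highest of the rest. The arrays of younger and older apices overlapped, and both expanding-leaf arrays were below all 4 apex arrays.

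FDH had scaled intensities of 212 and 249 in younger apices, 250 and 342 in older apices, 152 and 169 in expanding leaves, and 2458 and 2139 in mature leaves. Mature leaves again stood apart, with the lower array at 6.25 times the highest of the other 6. Expanding leaves were the lowest group, and the nearest arrays of the younger and older apices differed by less than 1 unit.

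GAMMA-VPE had scaled intensities of 644 and 427 in younger apices, 281 and 254 in older apices, 254 and 136 in expanding leaves, and 729 and 687 in mature leaves. Its profile had 2 high ends: the lower mature-leaf array exceeded the higher younger-apex array only 1.07-fold. That younger-apex array, Apex_5DAS replicate 1, also had a 25S ribosomal RNA signal of 193, against 0.961 to 21.3 elsewhere. Replicate 2, at 427, was further below mature leaves. Expanding leaves and older apices overlapped, and 1 expanding-leaf array was well below the other.

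WRKY22 had scaled intensities of 91.0 and 83.1 in younger apices, 55.1 and 45.2 in older apices, 65.4 and 92.1 in expanding leaves, and 26.0 and 27.3 in mature leaves. Every other array was at least 1.65 times the higher mature-leaf array. Expanding leaves overlapped younger apices, and older apices lay between those groups and mature leaves. For all 4 genes the mature-leaf arrays agreed more closely than the arrays of most other groups, with SDs of 0.01, 0.14, 0.06 and 0.04 on the log2 scale for PPDK, FDH, GAMMA-VPE and WRKY22. Among all 9906 genes, 12.5% had both mature-leaf arrays above the other 6 and 29.2% had both below, so a mature leaf that stands apart from the rest was common on these arrays.

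**Figure D1:**
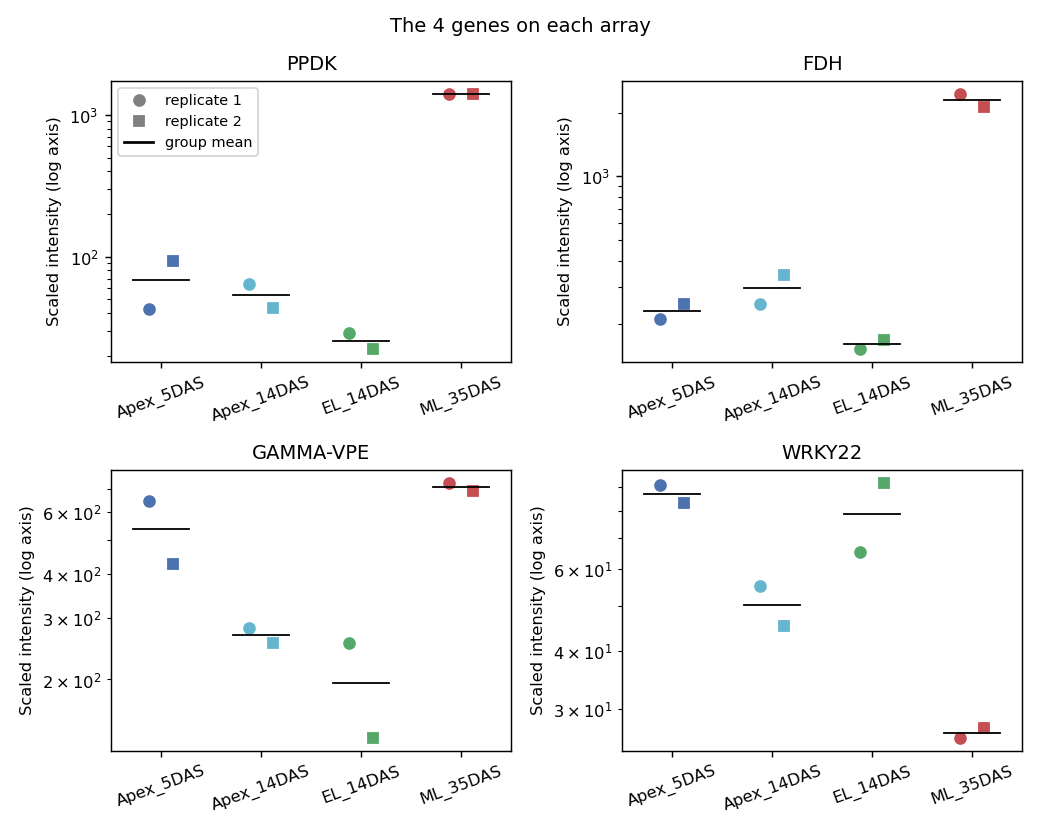
Scaled intensity (log axis, a separate scale for each gene) of PPDK, FDH, GAMMA-VPE and WRKY22 on the 8 arrays, with younger apices, older apices, expanding leaves and mature leaves from left to right; circles and squares are replicates 1 and 2 and bars are group means. PPDK and FDH stand above all other arrays in mature leaves, and WRKY22 is lowest there. GAMMA-VPE is nearly as high on replicate 1 of the younger apices as in mature leaves.

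Mature leaves were set against expanding leaves. These groups differ in day (35 against 14) as well as in leaf stage, so plant age and leaf maturity cannot be told apart. Differences are of group means of log2(scaled intensity + 7.7), so they understate changes of dim genes. PPDK averaged 10.46 ± 0.01 in mature leaves and 5.05 ± 0.20 in expanding leaves (SD, n = 2 each), a difference of 5.41 ± 0.33 (SE), which ranked 5 from the top of the 9906 genes. FDH averaged 11.17 ± 0.14 in mature leaves and 7.39 ± 0.10 in expanding leaves, a difference of 3.78 ± 0.22 and rank 9. On the scaled intensities themselves the group means stood at a ratio of 54.9 for PPDK and 14.3 for FDH.

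GAMMA-VPE averaged 9.48 ± 0.06 in mature leaves and 7.60 ± 0.61 in expanding leaves, a difference of 1.88 ± 0.30 that ranked 152 from the top. Its size depended on the expanding-leaf arrays: it was 2.31 without EL_14DAS replicate 1 and 1.45 without replicate 2. WRKY22 averaged 5.10 ± 0.04 in mature leaves and 6.42 ± 0.32 in expanding leaves, a difference of -1.31 ± 0.25. WRKY22 was the only one of the 4 to be lower in mature leaves, at rank 656 from the bottom of the 9906 genes. The median of all genes was -0.27 in this comparison, and 0.04 with array medians kept equal, so the sizes depend on the scaling. Relative to that median the difference was 5.68 for PPDK, 4.04 for FDH, 2.15 for GAMMA-VPE and -1.05 for WRKY22.

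In this comparison 21.4% of all genes passed the threshold of 0.05 on the limma adjusted p, 6.93% higher and 14.5% lower in mature leaves. Higher genes made up 32.4% of the calls, against 64.6% with array medians kept equal and 48.1% after quantile normalization. The groups did not overlap for any of the 4 genes, and the same held for 70.5% of all genes, 22.8% with mature leaves higher and 47.7% with them lower.

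Mature leaves were also set against the younger apices. PPDK was higher in mature leaves by 4.3 ± 0.33 and FDH by 3.27 ± 0.22, at ranks 23 and 40 of 9906. GAMMA-VPE was higher by 0.43 ± 0.30, at rank 2088, with 9.48 ± 0.06 in mature leaves against 9.06 ± 0.41 in younger apices. That difference was 0.14 without Apex_5DAS replicate 2, 0.72 without replicate 1 and 0.83 with array medians kept equal. WRKY22 was lower by 1.46 units, with 5.10 ± 0.04 in mature leaves against 6.56 ± 0.09 in younger apices (SE 0.25). Of all genes, 32.3% passed here, 11.0% higher and 21.3% lower in mature leaves. For all 4 genes the groups did not overlap, as for 68.2% of all genes (23.3% higher and 44.9% lower). Higher genes made up 34.0% of the calls, against 63.2% with array medians kept equal and 50.02% after quantile normalization.

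GAMMA-VPE differed from PPDK and FDH in its apex levels: all 3 were higher in mature than in expanding leaves, but for GAMMA-VPE the difference from younger apices was 0.43, close to the SD of the younger-apex arrays (0.41). From older apices, mature leaves differed by 4.54 for PPDK, 2.94 for FDH, 1.38 for GAMMA-VPE and -0.75 for WRKY22.

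**Figure D2:**
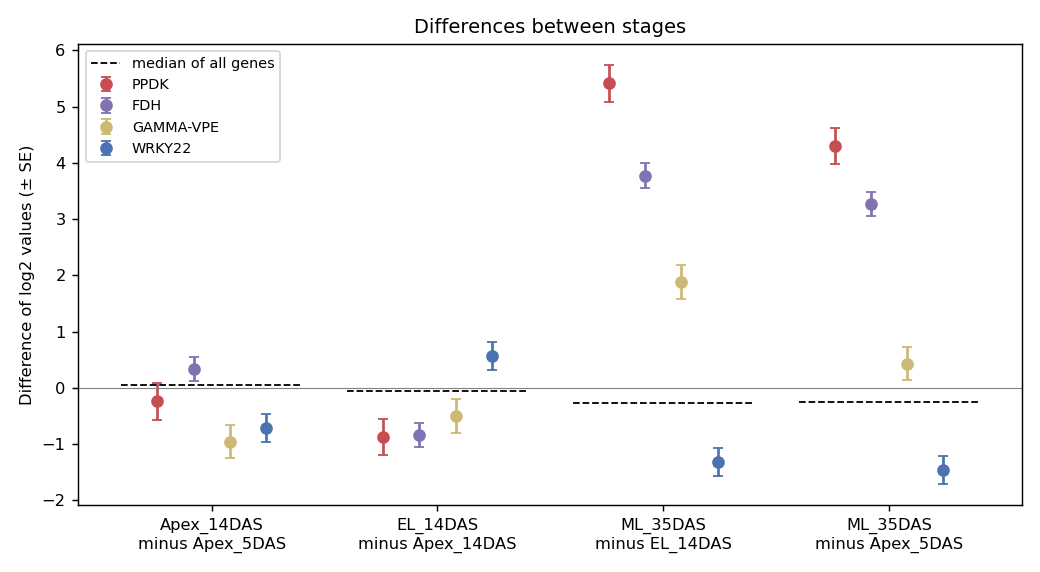
Differences of mean log2(scaled intensity + 7.7) ± SE for PPDK, FDH, GAMMA-VPE and WRKY22 in the 4 comparisons, each written as first group minus second; dashed lines give the median of all 9906 genes. The mature-leaf differences span 5.41 to -1.31 against expanding leaves, while the apex and expanding-leaf comparisons stay within 1 unit of 0.

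Older against younger apices and expanding leaves against older apices gave differences of under 1 unit for all 4 genes. Both comparisons were tested. However, the older-apex and expanding-leaf arrays share their estimate of spread with the mature-leaf arrays. Expanding leaves also enter the differences known when the genes were chosen. Expanding leaves were not tested against younger apices, where means lay over 1 unit apart for PPDK (5.05 and 6.16) and GAMMA-VPE (7.60 and 9.06). Between older and younger apices none of the 4 passed, where 2.56% of all genes did (1.18% higher and 1.38% lower). The largest of these 4 differences was that of GAMMA-VPE, which averaged 8.10 ± 0.10 in older apices and 9.06 ± 0.41 in younger apices, a difference of -0.95 ± 0.30 (limma adjusted p = 0.12). It passed when Apex_5DAS replicate 2 was left out (-1.25, adjusted p = 0.024), a fit in which the 1 younger-apex array that remained was assumed to vary like the other groups.

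WRKY22 averaged 5.85 ± 0.17 in older apices and 6.56 ± 0.09 in younger apices, a difference of -0.72 ± 0.25 (adjusted p = 0.17). The arrays of the 2 apex groups did not overlap for GAMMA-VPE and WRKY22, which were lower in older apices, nor for FDH, which was higher. Of all genes 47.1% did not overlap, 26.3% higher and 20.8% lower. The difference was -0.24 ± 0.33 for PPDK (adjusted p = 0.73) and 0.34 ± 0.22 for FDH (adjusted p = 0.43). The sign for PPDK was not settled, since it was 0.26 without Apex_5DAS replicate 2 and 0.01 without Apex_14DAS replicate 2. Higher genes were 46.1% of the calls in this comparison, against 33.8% with array medians kept equal.

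Between expanding leaves and apices of the same day, 6.30% of all genes passed, 2.83% higher and 3.47% lower in expanding leaves. FDH fell to 7.39 ± 0.10 in expanding leaves, against 8.23 ± 0.31 in older apices, by 0.84 units (SE 0.22, limma adjusted p = 0.049). This call sat at the threshold. It was lost under 8 of the other settings and when any array of older apices, expanding leaves or mature leaves was left out, with adjusted p up to 0.36 and a difference of -0.61 without Apex_14DAS replicate 2.

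PPDK averaged 5.05 ± 0.20 in expanding leaves and 5.92 ± 0.36 in older apices, a difference of -0.87 ± 0.33 that did not pass (adjusted p = 0.16). It passed without Apex_5DAS replicate 1 (adjusted p = 0.030) and without replicate 2 (adjusted p = 0.032), with the same difference. Both FDH and PPDK were lower in expanding leaves with no overlap of the arrays, and WRKY22 was higher with none, against 54.6% of all genes without overlap (22.5% higher and 32.1% lower). For GAMMA-VPE the difference was -0.50 ± 0.30 (adjusted p = 0.38). WRKY22 ran the other way, with 6.42 ± 0.32 in expanding leaves against 5.85 ± 0.17 in older apices, and did not pass either (0.57 ± 0.25, adjusted p = 0.24). Higher genes were 44.9% of the calls, against 60.1% with array medians kept equal.

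PPDK, FDH and GAMMA-VPE all had their lowest mean in expanding leaves and their highest in mature leaves. The mean of older apices was below that of younger apices for PPDK and GAMMA-VPE and above it for FDH, by less than 1 unit each. None of these differences passed, and the sign for PPDK was not settled. To measure likeness, each gene was centred on its mean over the 8 arrays and the root mean square of the log2 differences was taken. It was 0.74 between PPDK and FDH, 1.08 between FDH and GAMMA-VPE, 1.2 between GAMMA-VPE and WRKY22, 1.61 between PPDK and GAMMA-VPE, 2.03 between FDH and WRKY22 and 2.64 between PPDK and WRKY22. The measure depends on the size of changes as well as on their direction. GAMMA-VPE thus scored closer to WRKY22 than to PPDK, although WRKY22 was lower in mature than in expanding leaves and the other genes were higher.

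By the same measure, the 3 genes most like PPDK among all those tested were AT1G64360 (0.638), its neighbour in the RefSeq gene table AT1G64370 (0.650) and FDH itself (0.739). PPDK and FDH were both chosen with their mature-leaf values known, so the place of FDH here is not independent of that choice. AT1G64360 averaged 8.72 ± 0.16 in mature leaves and 3.28 ± 0.11 in expanding leaves. Its value in expanding leaves was close to the pseudocount, so the difference of 5.44 is not fixed in size. Neither locus has a gene name in the tables used.

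The profiles most like that of FDH were those of AT4G01390 (0.291), SAL2 (0.306), a gene of the inositol monophosphatase family, and AT1G49470 (0.369). SAL2 averaged 6.79 ± 0.14 in mature leaves and 3.48 ± 0.33 in expanding leaves. In expanding leaves SAL2 and AT4G01390 (3.22 ± 0.04) were near the floor that the pseudocount sets. The sizes of their steps, and so their likeness to FDH, are therefore not fixed. For GAMMA-VPE they were those of AILP1 (0.247), AT1G03020 (0.279) and the MYB-type gene MYBC1 (0.285). AILP1 averaged 11.44 ± 0.19 in mature leaves and 9.30 ± 1.05 in expanding leaves, and like GAMMA-VPE it was low on the second expanding-leaf array. For WRKY22 they were AT3G02880 (0.154), AT5G48290 (0.185) and AT5G01980 (0.188), with mature-leaf minus expanding-leaf differences of -1.09, -1.19 and -0.95. These are descriptions over 8 arrays that share 4 groups.

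**Figure D3:**
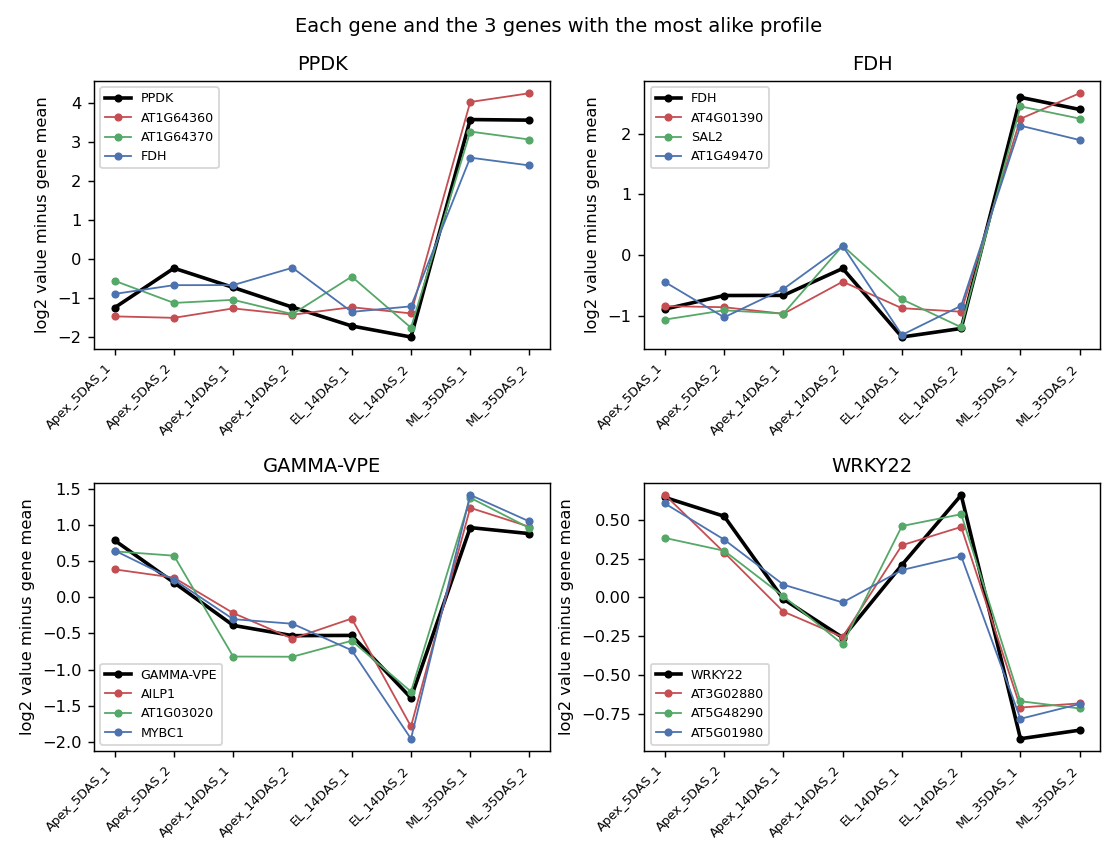
Log2 value minus the gene's own mean on each of the 8 arrays for PPDK, FDH, GAMMA-VPE and WRKY22 (black) and, in colour, the 3 genes with the smallest root mean square difference from each. The profiles like PPDK and FDH step up in mature leaves, those like GAMMA-VPE are high at both ends of the series and lowest on EL_14DAS replicate 2, and those like WRKY22 dip in older apices and mature leaves.

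GAMMA-VPE belongs to a family of 4 vacuolar processing enzyme genes, of which ALPHA-VPE is, like it, a vegetative type, BETA-VPE is known for processing seed storage proteins and DELTA-VPE is known from the seed coat. Neither BETA-VPE nor DELTA-VPE passed in mature against expanding leaves. BETA-VPE averaged 4.98 ± 0.07 in mature leaves and 5.07 ± 0.11 in expanding leaves, a difference of -0.09 ± 0.30 (limma adjusted p = 0.85), which was 0.18 with array medians kept equal and 0.37 after quantile normalization. DELTA-VPE averaged 3.70 ± 0.83 in mature leaves and 4.97 ± 0.46 in expanding leaves and did not pass (-1.28 ± 0.47, adjusted p = 0.077). Its size was -2.25 with a smaller pseudocount (percentile 5 of the intensities) and -0.62 with a larger one (percentile 40). It passed in the same direction with the replicate number as a block (adjusted p = 0.037), although the same-numbered arrays of these groups did not deviate together (r = -0.04).

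ALPHA-VPE did not pass the filter on low values. Its scaled intensities were 4.09 and 8.22 in younger apices, 5.97 and 4.43 in older apices, 26.9 and 15.1 in expanding leaves, and 2.41 and 5.93 in mature leaves. Expanding leaves held its 2 highest arrays, the group in which GAMMA-VPE had its lowest mean. At signals this low the order of groups for ALPHA-VPE is not settled, and it was not tested.

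**Figure D4:**
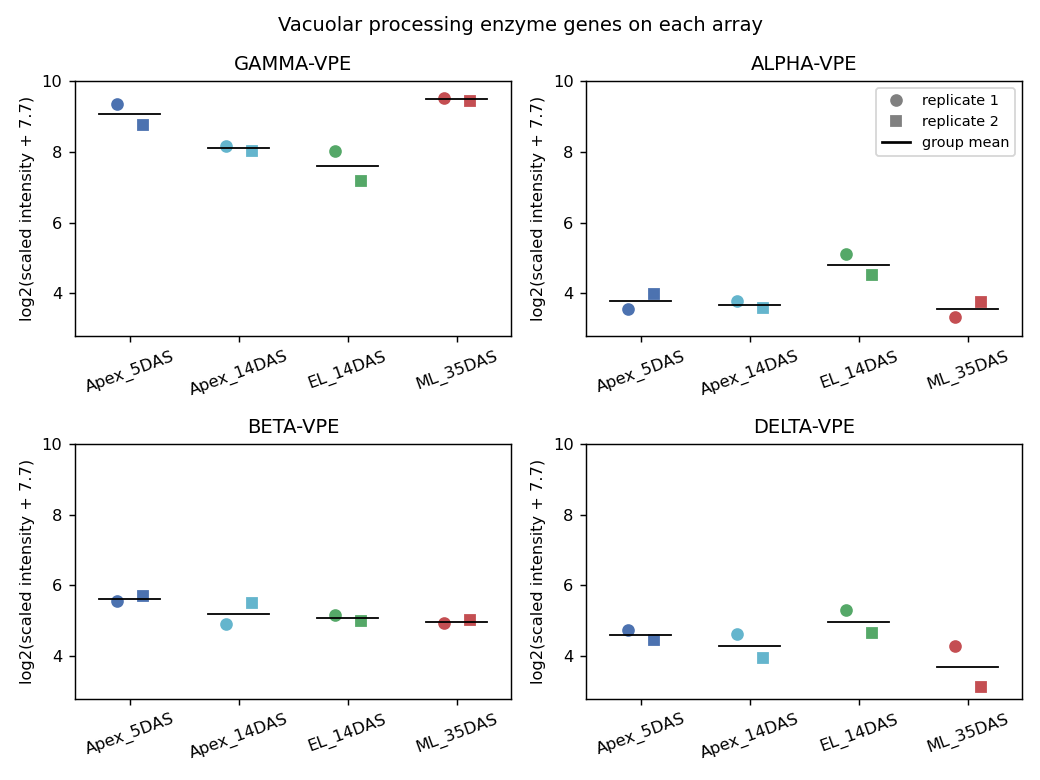
Log2(scaled intensity + 7.7) of GAMMA-VPE, ALPHA-VPE, BETA-VPE and DELTA-VPE on the 8 arrays, by group; circles and squares are replicates 1 and 2 and bars are group means. GAMMA-VPE is highest in mature leaves and younger apices, while the other panels show no mature-leaf array above the expanding-leaf arrays except for overlapping BETA-VPE values; levels of different probe sets are not comparable.

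Other genes of these pathways came from lists drawn up with earlier results of these data known. Few of their members could be measured, and 8730 probe sets have no gene name in the annotation used. SAG12, the best-known marker of late senescence, was among the genes not analysed here. The counts below are read against the 6.93% of all genes that were higher and the 14.5% that were lower in mature than in expanding leaves.

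Of 62 genes of nitrogen remobilisation and amino acid catabolism, 6 were tested, 0 were higher and 1 was lower in mature leaves, with a median of -0.13. NRT2.5, a high-affinity nitrate transporter, had 6.95 and 12.5 in mature leaves, against 33.2 and 25.5 in expanding leaves. It fell by 1.1 units (SE 0.33, limma adjusted p = 0.041). Its mature-leaf values are near the pseudocount, and the larger pseudocount gave -0.61. The call was lost with array medians kept equal (0.090), after quantile normalization (0.19), with no filter (0.063) and without any single array of older apices, expanding leaves or mature leaves (up to 0.23). The other 5 did not pass. The ornithine aminotransferase DELTA-OAT differed by 0.25 ± 0.24 and isovaleryl-CoA dehydrogenase IVD, which acts in leucine breakdown, by 0.43 ± 0.27. ALN, the allantoinase of purine breakdown, differed by 0.10 ± 0.31, and its sign turned without EL_14DAS replicate 2 (-0.14) or ML_35DAS replicate 2 (-0.04). The leucine-breakdown carboxylase genes MCCA and MCCB differed by -0.54 ± 0.33 and -0.36 ± 0.22.

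Of 73 senescence regulators and senescence-associated genes, 6 were tested, 0 were higher and 1 was lower in mature leaves, with a median of -0.30. The gene that fell was EEL, a bZIP factor known from embryo development, at 3.62 ± 0.43 in mature leaves against 5.04 ± 0.09 in expanding leaves (-1.43 ± 0.38, adjusted p = 0.027). Its mature-leaf intensities, 2.25 and 7.43, lay below the pseudocount, so the size is not fixed: the smaller pseudocount gave -2.30 and the larger gave -0.71. This call was lost after quantile normalization (0.12) and without either array of expanding or mature leaves (up to 0.18). WRKY53, a promoter of leaf senescence, differed by -0.63 ± 0.30 (adjusted p = 0.15) and had 26.6 and 40.5 in mature leaves, against 45.5 and 66.5 in expanding leaves.

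SAG101, known as a senescence-associated acyl hydrolase and as a partner in immune signalling, had 31.1 and 45.8 in mature leaves, against 21.3 and 25.7 in expanding leaves, and did not pass (0.55 ± 0.32, adjusted p = 0.23). EIN3, the ethylene-signalling factor that promotes senescence, differed by 0.32 ± 0.19 (adjusted p = 0.24). With array medians kept equal it was called, at 0.67 (adjusted p = 0.044). SAG29 differed by -0.47 ± 0.52, or 0.25 without EL_14DAS replicate 1, and WRKY6 by -0.14 ± 0.49, a sign that turned with either other scaling.

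NOL, a subunit of the chlorophyll b reductase that begins chlorophyll b breakdown, was the only tested gene of 15 in the chlorophyll breakdown list. It had 280 and 307 in mature leaves, against 562 and 584 in expanding leaves, and fell by 0.95 units (SE 0.19, adjusted p = 0.0079). The call was lost with array medians kept equal (-0.60, 0.058) and without EL_14DAS replicate 2 (0.053), ML_35DAS replicate 1 (0.082) or ML_35DAS replicate 2 (0.051).

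Among 43 genes for vacuolar and other proteases, their inhibitors and nucleases, 6 were tested, 2 were higher and 1 was lower in mature leaves, with a median of -0.47. CYS1, a cystatin that inhibits cysteine proteases, had 839 and 648 in mature leaves, against 275 and 253 in expanding leaves, and rose by 1.46 ± 0.23 (adjusted p = 0.0024). It passed under every alternative run, with adjusted p of at most 0.043 without a single array. CYS1 and GAMMA-VPE were both higher in mature than in expanding leaves, and both had their lowest mean in expanding leaves.

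APA1, a vacuolar aspartic protease, had 3249 and 3058 in mature leaves, against 1880 and 1682 in expanding leaves, and rose by 0.82 ± 0.20 (adjusted p = 0.018). The call was lost with no filter (0.053) and without any single array of expanding or mature leaves (up to 0.13). NANA, a chloroplast aspartic protease, had 10.0 and 6.2 in mature leaves, near the pseudocount, against 122 and 34.7 in expanding leaves, and fell by 2.24 units (SE 0.48, adjusted p = 0.011). The size was -1.44 with the larger pseudocount, -3.05 without EL_14DAS replicate 2 and -1.44 without EL_14DAS replicate 1, and the call was lost without EL_14DAS replicate 1 or either mature-leaf array (up to 0.080).

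The lists closest to PPDK and FDH held almost nothing that could be measured. Of 37 genes for pyruvate and related enzymes, only the enolase ENOC was tested, which makes phosphoenolpyruvate in glycolysis, and it differed by -0.52 ± 0.22 between mature and expanding leaves (adjusted p = 0.11). Of 27 symbols resolved for formate, one-carbon and photorespiratory metabolism, the 2 that were tested, THO1 and GLDH, matched through shared names and act in messenger RNA export and ascorbate synthesis. They differed by 0.20 ± 0.25 and -0.63 ± 0.20 and did not pass. No listed gene of formate metabolism was therefore tested, and genes outside the list were not looked up.

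For WRKY22, 2 of 39 genes of its signalling pathway and of pattern-triggered immunity were tested, and neither passed in any of the 4 comparisons. BIK1, the receptor-like cytoplasmic kinase next to the flagellin receptor, had 93.2 and 90.5 in mature leaves, against 131 and 193 in expanding leaves (-0.75 ± 0.25, adjusted p = 0.055). It passed with only the 2 groups compared (0.033) and without either younger-apex array (0.032). WRKY53, given above, was the other. The receptor gene EFR did not pass the filter, with scaled intensities of at most 6.51.

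Of 24 genes of dark and sugar starvation responses, 2 were tested. EXO, a gene of brassinosteroid-promoted growth that was listed as a relative of sugar-responsive genes, had 50.3 and 54.4 in mature leaves, against 201 and 184 in expanding leaves. It fell by 1.74 units (SE 0.28, adjusted p = 0.0034) and passed under every alternative run. BZIP53, a bZIP factor of the starvation response, differed by -0.21 ± 0.22 from expanding leaves, or 0.12 with array medians kept equal.

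Photosynthesis genes, whose transcripts fall in advanced senescence, were followed through 9 tested genes of 57. In mature against expanding leaves 1 was higher and 0 were lower, with a median of 0.40. The light-harvesting gene LHCB4.3 had 791 and 764 in mature leaves, against 185 and 363 in expanding leaves, and rose by 1.56 ± 0.37 (adjusted p = 0.016). Its call was lost without EL_14DAS replicate 1 (0.12) or either mature-leaf array (up to 0.11). The other 8 differed by 0.08 to 0.52 and did not pass, and LHCB4.1, PSAE-1 and SBPASE turned to -0.074, -0.32 and -0.015 after quantile normalization. RCA, which activates Rubisco, differed by 0.52 ± 0.24 (adjusted p = 0.14). PRK and SBPASE, enzymes of the Calvin cycle, differed by 0.46 ± 0.21 and 0.38 ± 0.20 from expanding leaves.

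PPDK and FDH were high in mature leaves. None of the 9 tested photosynthesis genes was called lower there than in expanding leaves, where 14.5% of all genes were. With so few genes, 0 lower calls cannot be told from that share. In mature leaves against younger apices, where 11.0% of all genes were higher and 21.3% lower, 3 of these 9 were called higher and 0 lower. The calls of LHCB4.3, PRK and SBPASE were all lost without either mature-leaf array (adjusted p up to 0.071, 0.19 and 0.096), and that of PRK also without 5 other arrays.

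The other lists gave 0 higher genes between mature leaves and younger apices. Their lower calls were MCCA among 6 nitrogen genes, EEL and SAG29 among 6 senescence genes, and CP1 and NANA among 6 protease-list genes. EXO and BZIP53, the 2 tested genes of the starvation list, were also called lower. Of these, EXO is the growth gene listed only as a relative of sugar-responsive genes. All these calls are to be read against the 21.3% of all genes called lower. EXO and NANA passed with any single array left out (adjusted p at most 0.0065 and 0.024). MCCA, EEL, SAG29, CP1 and BZIP53 were each lost without at least 1 array, with adjusted p up to 0.22.

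Between expanding leaves and older apices, where 2.83% of all genes were higher and 3.47% lower, LHCB4.2, PRK and SBPASE were called higher and CYS1 lower in expanding leaves. Each of these calls was lost without any single array of older apices, expanding leaves or mature leaves (adjusted p up to 0.17, 0.22, 0.24 and 0.28). Between older and younger apices, where 1.18% of all genes were higher and 1.38% lower, LHCB4.2 alone of the tested photosynthesis genes was called, lower in older apices, and of the 8 single-array removals, that of Apex_5DAS replicate 2 was the only one to keep the call (up to 0.24 in the others). Over the 4 comparisons, 23 results of listed genes were called. Of these, 8 kept their call under every planned setting other than single-array removal, and 4 under every removal. Calls were lost for 9 results with array medians kept equal, 8 after quantile normalization, 10 with no filter and 7 with no intensity trend.

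**Figure D5:**
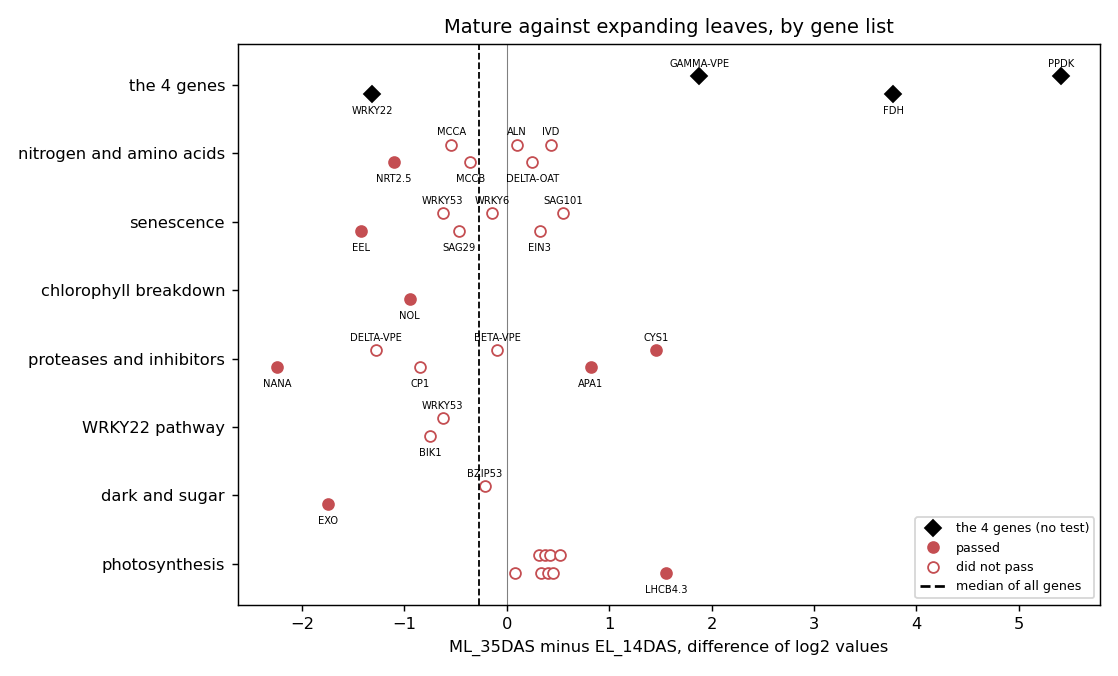
Mature-leaf minus expanding-leaf difference of log2(scaled intensity + 7.7) for the 4 genes (black diamonds, no test) and the tested genes of each pathway list (filled circles passed at a limma adjusted p below 0.05, open circles did not); the dashed line is the median of all genes, -0.27, and open photosynthesis points are left unlabelled. PPDK, FDH and GAMMA-VPE lie to the right of every listed gene, while WRKY22 lies among the lowest. The 4 genes were chosen with their mature-leaf values known, so these places are not a result about the lists.

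Other measures were set beside these values. Of 6 tested markers of dividing cells, 5 were lower in mature than in expanding leaves (median -2.33), and their summed scaled intensity was 1374 and 1661 in younger apices, 2162 and 2390 in older apices, 768 and 1080 in expanding leaves, and 289 and 325 in mature leaves. The summed intensity of 3 mesophyll markers (RCA, PRK and SBPASE) was 16042 and 10508 in younger apices, 9094 and 9266 in older apices, 14438 and 15871 in expanding leaves, and 20805 and 20868 in mature leaves. No marker of either list was at 0. The meristem marker CLV3 did not pass the filter, with at most 13.3 in any apex, and no root or vascular marker had a named probe set. The ratio of 3' to 5' actin control probe sets, a measure of RNA integrity, was 2.47 and 2.59 in mature leaves, 2.39 on Apex_5DAS replicate 1 and 1.4 to 1.73 on the rest. The corresponding GAPDH ratio in mature leaves lay within the range of the other groups, at 1.04 and 1.01 there and 0.843 to 1.21 on the other arrays. The part of cell makeup or RNA integrity in the mature-leaf values of PPDK, FDH, GAMMA-VPE and WRKY22 was not tested.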

How the data were processed

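Total RNA of 4 groups was hybridised to ATH1 arrays, 2 per group. The deposited table holds linear intensity values, for which the submitters' processing notes name MAS5. The median of each deposited array was 50, and the step that set it is not given in the sources used here. The mean of each array without its top and bottom 2% ranged from 117 to 175, a 1.50-fold spread above the limit of 1.2, and arrays were therefore multiplied by 0.757 to 1.14 to reach the median of these means, 132.7. The pseudocount was 7.7 (percentile 20), and genes were kept if above percentile 30 of an array on 2 arrays.

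Control probe sets (64) were not tested. The platform annotation lists 14016 probe sets. It gives several genes for 503, which were dropped, and 1 gene for 13513, of which 13436 were found in RefSeq (TAIR10.1, used for names and for which loci neighbour each other). Where a gene had several probe sets, the brightest on average stood for it. The members and lists were chosen with earlier results of these data known.

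Groups were compared in limma (version 3.58.1, R 4.3.3) by lmFit and eBayes (with an intensity trend) as a two-sided test on all 8 arrays together, with 4 residual and 6.22 prior degrees of freedom. Adjustment over the 9906 genes was by Benjamini-Hochberg, with 0.05 as threshold. Detection calls were not used. Precision is limited by having 2 arrays in a group. Across genes, which are not independent replicates, the arrays of a group had a Pearson r of 0.908 in younger apices, 0.960 in older apices, 0.951 in expanding leaves and 0.978 in mature leaves. Apex_5DAS replicate 1 had a 25S ribosomal RNA signal of 193, against 0.961 to 21.3 elsewhere.

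Named besides the 4 genes were the 3 most alike profiles of each and up to 3 passing genes of each list and direction, with the largest changes first, or the largest that did not pass. The text gives these for mature against expanding leaves. ALPHA-VPE, BETA-VPE, DELTA-VPE and further listed genes that did not pass were named after their values were seen. Steps were tested on simulated data. Alternatives were equal medians as deposited or quantile scaling, pseudocounts at percentiles 5 and 40, no filter, no trend, a robust fit, only the groups compared, a replicate block, all probe sets, at least 2-fold changes, and each array left out.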

Additional observations from a re-analysis of the deposited data

How the results depend on the processing

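The mature-leaf differences of the 4 genes kept their sign under every alternative run. Their sizes moved by more than the spread between arrays in these cases. As deposited (equal array medians), FDH differed by 4.13 from expanding leaves and 3.68 from younger apices, WRKY22 by -1.03 and -1.13, and GAMMA-VPE by 0.83 from younger apices. Quantile normalization gave -0.98 and -1.09 for WRKY22. The pseudocount at percentile 5 gave -1.5 and -1.67 for WRKY22, and at percentile 40 it gave -0.96 and -1.08 for WRKY22 and 4.75 for PPDK against expanding leaves. The fall of FDH in expanding leaves against older apices was lost as deposited (-0.67, adjusted p = 0.14), after quantile normalization (-0.79, 0.053), with the pseudocount at percentile 5 (-0.86, 0.051) or 40 (-0.77, 0.053) and, at -0.84, with no filter (0.069), no intensity trend (0.10), only the groups compared (0.050) and the replicate block (0.051).

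A group left with 1 array was assumed to vary like the others. Leaving out single arrays gave -0.75 to 0.26 for PPDK and -1.25 to -0.66 for GAMMA-VPE between older and younger apices, -1.13 to -0.62 for PPDK and -1.06 to -0.61 for FDH between expanding leaves and older apices, 1.45 to 2.31 for GAMMA-VPE and -1.54 to -1.09 for WRKY22 between mature and expanding leaves, and 3.79 to 4.81 for PPDK and 0.14 to 0.72 for GAMMA-VPE between mature leaves and younger apices. The counts of called genes then ranged from 27 without Apex_14DAS replicate 1 to 1786 without Apex_5DAS replicate 2 (254 with all arrays) between older and younger apices, from 95 without Apex_14DAS replicate 2 to 1218 without Apex_5DAS replicate 1 (624) between expanding leaves and older apices, from 484 without ML_35DAS replicate 1 to 3189 without Apex_5DAS replicate 1 (2118) between mature and expanding leaves, and from 1416 without ML_35DAS replicate 1 to 3593 without Apex_5DAS replicate 2 (3196) between mature leaves and younger apices. In the same order of comparisons, all probe sets gave 630, 1334, 3926 and 6001 calls, which tests more features, and the replicate block 260, 647, 2165 and 3292. For older against younger apices and for expanding leaves against older apices, no filter gave 90 and 354 calls and no intensity trend 64 and 341, and only the groups compared gave 28 between the apices.

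Signs turned for listed genes that were not called between mature and expanding leaves. As deposited they were 0.18 for BETA-VPE, 0.12 for BZIP53 and 0.10 for WRKY6, and after quantile normalization 0.37 for BETA-VPE, 0.34 for WRKY6, -0.074 for LHCB4.1, -0.32 for PSAE-1 and -0.015 for SBPASE. Without single arrays ALN ranged from -0.14 to 0.33, SAG29 from -1.18 to 0.25 and WRKY6 from -0.47 to 0.19. Deviations of same-numbered arrays correlated over 0.1 in 2 of 6 pairs of groups, at 0.31 for older apices with expanding leaves and 0.13 for younger apices with expanding leaves, and at -0.09 to 0.04 in the rest. The labels give no shared source for a number, and the arrays were not treated as paired. Among results the text names, the block changed the calls of FDH and DELTA-VPE (called, 0.037). It also lost the call of 1 listed-gene result. Where no value shows it, the cause was not tested. No detection calls were used, so the low signals of ALPHA-VPE, EFR and NANA say nothing on presence or absence.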
